A study of Mus musculus with 10 samples.

Results

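The cells described here are 145 cells of the *Lepr* lineage, chosen by their own *Cxcl12* level and called marrow stromal cells as a group. Of 162 wells on 2 *Lepr-TdT* plates, 160 held at least 350 genes with a UMI. In 145 of these *Cxcl12* made up at least 0.3% of all UMIs. A unique molecular identifier (UMI) tags each captured transcript, so that PCR copies are counted once. The series holds 930 wells on 10 plates. The *Lepr-TdT* mice (C57BL/6) carried a Cre recombinase under control of *Lepr*, which encodes the leptin receptor, and a Cre-dependent TdTomato reporter in the *R26* locus. Recombination marks a cell and all its progeny, so TdTomato reports past or present activity of the Cre and not current *Lepr* mRNA. *Lepr-TdT* mice were age paired with *Grem1-TdT* mice, which carried an inducible *Grem1-creERT* with the same reporter and received tamoxifen chow for 2 weeks from 5 to 6 weeks of age. No tamoxifen treatment is given for *Lepr-TdT* mice. *Lepr-TdT* cells came from whole cleaned hind limb bones, crushed and digested with collagenase type I, and were sorted as live TdTomato+ cells negative for CD45, Ter119 and CD31. *Grem1-TdT* cells came from excised articular cartilage (AC) and growth plate (GP), digested with collagenase type II and sorted without those 3 exclusions. Lineage, tissue, enzyme, gate and tamoxifen differ together and cannot be told apart in any comparison between the lineages. The methods speak of 2 to 3 individual samples grouped together, and how many mice fed each plate is unknown, so p-values measure the spread between plates.

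*Cxcl12*-rich stromal cells of the marrow, also called CAR cells, surround the sinusoids and hold haematopoietic stem and progenitor cells in their niche. CXCL12 is the chemokine that keeps CXCR4-bearing cells in the marrow, and KITL (stem cell factor) is the ligand of the receptor KIT on stem cells. *Ebf3* and *Foxc1* encode transcription factors that maintain these cells, and *Adipoq*, which encodes the hormone adiponectin, marks their bias towards the adipocyte fate. The *Lepr* lineage also gives rise to osteoblasts and adipocytes of the adult marrow.

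The start sites of 4 of the 6 marker genes (*Cxcl12*, *Adipoq*, *Lepr*, *Kitl*, *Ebf3* and *Foxc1*) are shown. Of these genes, only *Cxcl12* chose the cells. The sequences, from RefSeq for GRCm38, run from 250 bases before to 50 bases after the annotated start, 5′ to 3′ on the gene's strand. They are *Cxcl12* (chr6:117168285-117168584, + strand), *Adipoq* (chr16:23146286-23146585, + strand), *Kitl* (chr10:100015571-100015870, + strand) and *Ebf3* (chr7:137314396-137314695, - strand), with capitals marking a match to any of 4 motifs searched on both strands.
Cxcl12: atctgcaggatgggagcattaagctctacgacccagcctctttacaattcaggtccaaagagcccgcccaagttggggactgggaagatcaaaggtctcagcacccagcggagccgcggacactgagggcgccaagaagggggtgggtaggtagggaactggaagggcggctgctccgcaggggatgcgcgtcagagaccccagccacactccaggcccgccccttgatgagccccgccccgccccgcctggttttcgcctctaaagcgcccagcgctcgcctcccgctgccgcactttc
Adipoq: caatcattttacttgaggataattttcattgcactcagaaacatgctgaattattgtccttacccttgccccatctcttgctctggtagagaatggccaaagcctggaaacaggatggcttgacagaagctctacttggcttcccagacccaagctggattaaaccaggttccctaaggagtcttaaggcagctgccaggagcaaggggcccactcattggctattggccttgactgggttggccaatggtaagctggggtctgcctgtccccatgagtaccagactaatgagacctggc
Kitl: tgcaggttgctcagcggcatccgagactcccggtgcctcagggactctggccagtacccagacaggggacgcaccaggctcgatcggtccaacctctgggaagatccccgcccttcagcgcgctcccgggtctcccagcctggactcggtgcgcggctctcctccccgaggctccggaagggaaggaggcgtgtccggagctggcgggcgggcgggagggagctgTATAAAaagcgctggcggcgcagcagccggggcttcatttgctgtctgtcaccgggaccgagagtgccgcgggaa
Ebf3: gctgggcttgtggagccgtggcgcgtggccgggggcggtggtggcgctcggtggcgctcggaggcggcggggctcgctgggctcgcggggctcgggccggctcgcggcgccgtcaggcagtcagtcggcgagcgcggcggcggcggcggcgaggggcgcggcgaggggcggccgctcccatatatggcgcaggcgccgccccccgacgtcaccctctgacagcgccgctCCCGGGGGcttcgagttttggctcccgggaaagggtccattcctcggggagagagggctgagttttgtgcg
The motifs were CCCNNGGG (the palindrome bound by EBF factors), GTAAACA (forkhead), TTNNGCAA (C/EBP) and TATAAA (the TATA box). Of 32851 promoter windows of this length, 13.7% hold the first, 3.65% the forkhead motif, 10.8% the C/EBP motif and 13.6% the TATA box. The *Kitl* window holds the TATA box, which begins 25 bases before the start, and the *Ebf3* window holds CCCNNGGG, which begins 21 bases before it. The *Cxcl12* and *Adipoq* windows hold none of these letters. Of the markers not shown, *Foxc1* and the first *Lepr* window hold none either. The second *Lepr* window holds a C/EBP match that begins 19 bases after the start.

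*Cxcl12* itself ranged from 0.333% to 2.96% of a member's UMIs on plate 1 (median 1.37%) and from 0.307% to 3.03% on plate 2 (median 1.36%). These values chose the members and are a description. Of the 145, 104 lay at 1% or more and 24 at 2% or more. The members nearest to the limit had 0.307% (5 of 1628 UMIs) and 0.333% (9 of 2703 UMIs), and the nearest cells outside had 0.289% (5 of 1732) and 0.284% (9 of 3164). All of these shares rest on 5 or 9 *Cxcl12* UMIs.

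**Figure D1:**
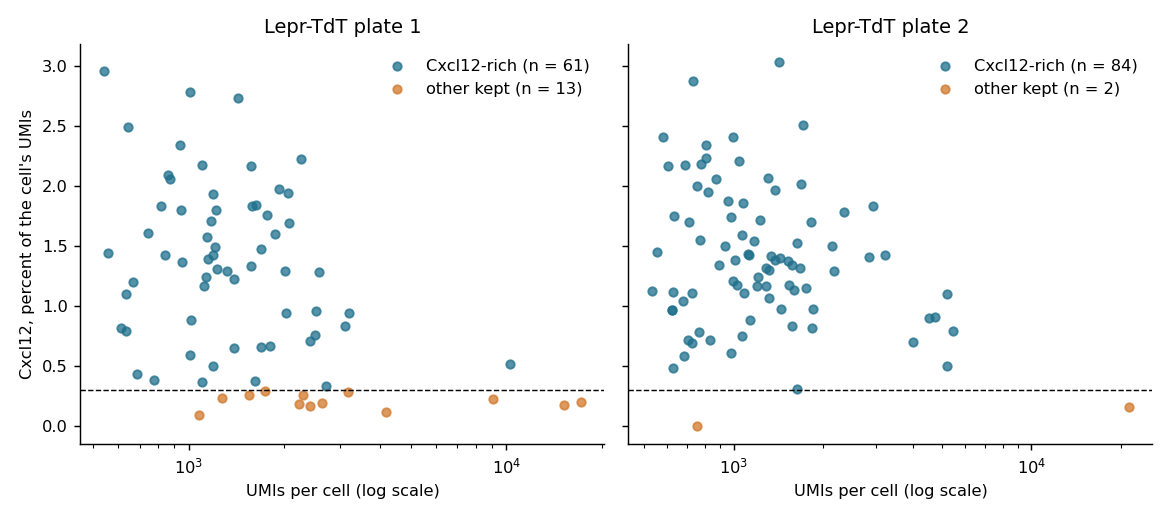
*Cxcl12* as a percent of each cell's UMIs (vertical axis) against the cell's total UMIs (horizontal axis, log scale) on both *Lepr-TdT* plates, 1 point per kept cell, with the limit of 0.3% as a dashed line. On plate 1, 13 cells lie under the line and on plate 2 there are 2, and the deepest cell of each plate (17146 and 21187 UMIs) is among them.

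Members made up 61 of 74 kept cells on plate 1 (82.4%, exact binomial 95% interval 71.8% to 90.3%) and 84 of 86 on plate 2 (97.7%, interval 91.9% to 99.7%), a mean of 90.1% ± 10.8 (SD, n = 2 plates). Intervals here cover counting error only. Members held 541 to 10277 UMIs on plate 1 (median 1208, with a median of 795 genes) and 533 to 5432 on plate 2 (median 1130, with 728 genes). Their UMIs summed to 94810 and 123543. The 15 other kept cells were deeper, with a median of 2407 UMIs on plate 1 and 21187 and 754 UMIs in the 2 cells on plate 2. They hold several kinds of cell: 1 has 151 *Cytl1* and 60 *Prg4* UMIs (both cartilage transcripts), 1 has 170 *Col1a1* and 81 *Bglap* UMIs (collagen I and osteocalcin), and the cell of 21187 UMIs has 256 *Mpo* and 235 *Elane* UMIs (granule enzymes of neutrophil precursors). In that order their *Cxcl12* shares were 0.120%, 0.262% and 0.156%. A share close to the limit of 0.3% therefore does not by itself name a cell's type.

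Some transcripts followed the well and not the cell. The plates share 70 of their well barcodes, and 54 barcodes have a member on both plates. A gene was called well-tied if at least 30% of its UMIs in these wells fell in 1 well on each plate, under the same barcode on both. This held for 19 of 1100 genes with at least 10 UMIs on each plate, in 9 barcodes. *Ctcfl* had 256 of 298 UMIs in the well with barcode GTTCCCAA on plate 1 and 575 of 686 in the well with that barcode on plate 2. That same well also led all 8 *Grem1-TdT* plates for *Ctcfl*, with 64 to 245 UMIs. *Lrp4* had 84.9% and 89.9% of its UMIs under GCAGGTAA. *Tpcn1*, *1700061G19Rik* and *AI593442* had 88.9% to 98.3% under GGCTCAAA. *Shank1* had 91.7% and 97.3% under CTTGAGGA.

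**Figure D2:**
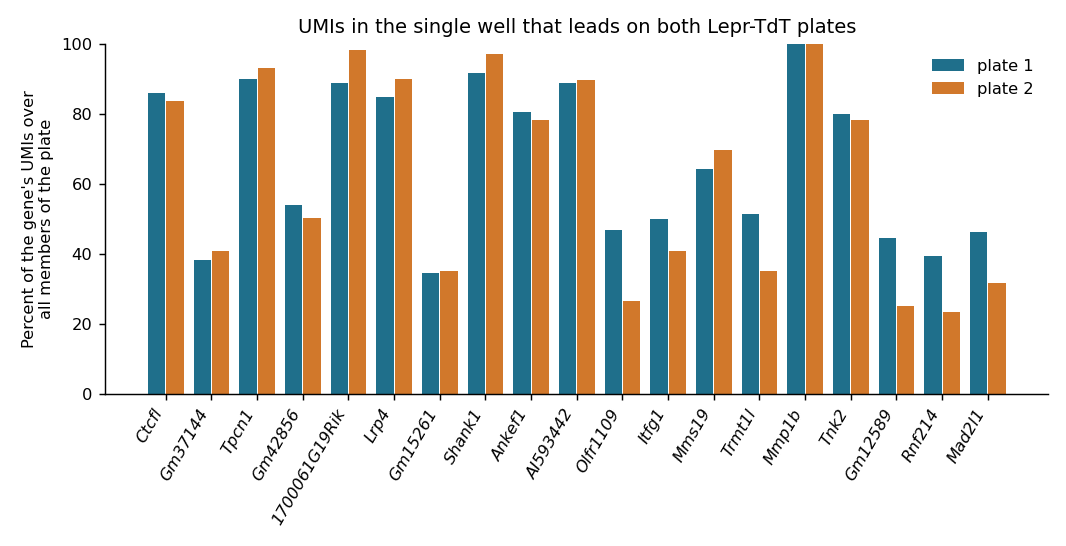
Percent of a gene's UMIs over all members of a plate (vertical axis) that fell in the single well that led on both plates, for the 19 well-tied genes. Bars are plate 1 and plate 2. For *Mmp1b* the well held 100% on both plates (10 and 30 UMIs).

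Members that share a barcode were compared across the plates. Over 237 genes with at least 100 UMIs, the correlation across genes between members of the same barcode had a median of 0.0540 against -0.00542 for different barcodes, as a description over 54 wells. Of 54 wells, 4 matched best with their own barcode, and 2 did without the well-tied genes. Without those genes the medians were 0.0450 and -0.00528, so the higher median for the same barcode remained. Well-tied genes made up 1.81% of all member UMIs, 0.517% in the median member and 19.1% in the highest. Levels of these 19 genes are therefore reported as uncertain below.

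Transcripts of neutrophils were present throughout, although the sort excluded CD45+ cells. *S100a8*, which encodes a calcium-binding protein abundant in neutrophils, had a UMI in 61 of 61 members on plate 1 and 84 of 84 on plate 2. The 6 genes *S100a8*, *S100a9*, *Lyz2*, *Camp*, *Ngp* and *Ltf* together took a median of 4.51% of a member's UMIs on plate 1 (1.52% to 16.4%) and 2.28% on plate 2 (0.723% to 22.6%). *Ptprc*, which encodes CD45, had 4 and 3 UMIs. Of the 24 haematopoietic genes listed, 16 had UMIs on both plates and 2 had none, and their summed level was 50206 and 45531 CPM (UMIs per 1000000 UMIs) in members, beside 118222 CPM in the other kept cells of plate 1 and 34091 CPM in those of plate 2. In *Grem1-TdT* cells, which were not sorted against CD45, 9.50% carried *Camp*, at a median of 1472.5 UMIs per cell over genes listed for both lineages, against 489 in members. At 269 such UMIs per cell, 2.34% of *Grem1-TdT* cells and 91.5% of members carried it.

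Other such transcripts were bound to 1 plate. *Mpo* had 0 UMIs in 61 members on plate 1, which by a floor of 3 counts allows up to 4.92% of cells with a UMI (exact binomial limit 5.87%), and 338 UMIs in 77 of 84 members on plate 2, where the cell of 21187 UMIs lies. *Elane* had 2 UMIs on plate 1 and 113 in 56 members on plate 2. *Cytl1* went the other way, with 175 UMIs in 50 members on plate 1, which also holds the cell with 151 *Cytl1* UMIs, and 0 in 84 members on plate 2 (up to 3.57% of cells with a UMI by the floor, exact limit 4.30%). *Prg4* followed it with 28 UMIs in 19 members and 1 UMI in 1 member. The part of transcripts from other wells in these values was not tested.

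**Figure D3:**
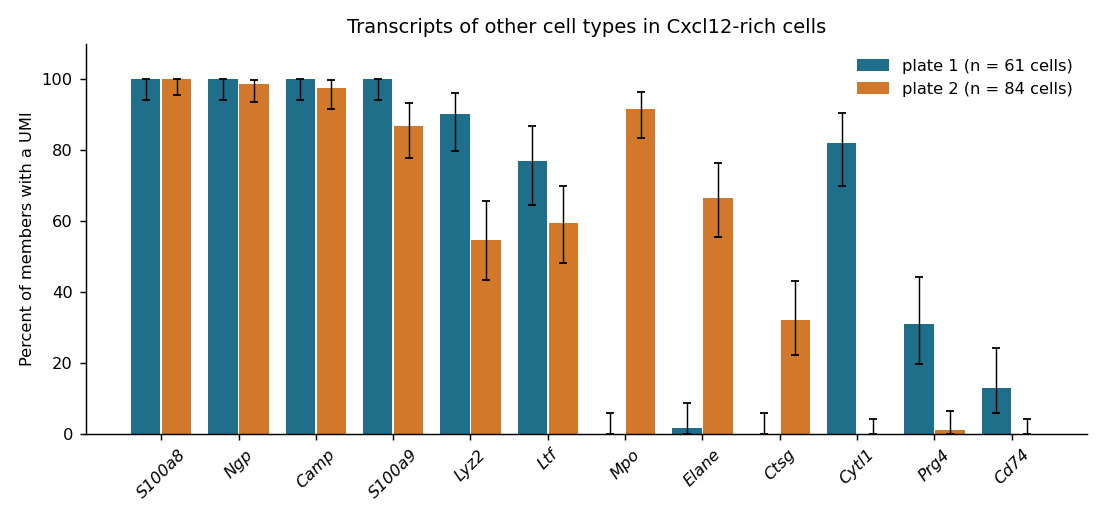
Percent of members with at least 1 UMI (vertical axis) for 12 transcripts of neutrophils, their precursors, cartilage and antigen-presenting cells, on plate 1 (61 cells) and plate 2 (84 cells). Error bars are exact binomial 95% intervals. *Mpo* has 0% on plate 1 and 91.7% on plate 2, and *Cytl1* 82.0% and 0%.

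All 6 marrow stromal markers exceeded 100 CPM on both plates, which for *Cxcl12* the rule guaranteed. *Adipoq* had 2373 CPM on plate 1 and 3116 CPM on plate 2 (2745 ± 525, SD, n = 2), and 131 of 145 members carried it. Of the 15 other kept cells, which were deeper, 12 did so. After thinning every cell to 651 UMIs the shares were 79.2% of members and 33.3% of other kept cells (130 members were deep enough). *Lepr*, the gene that drives the Cre, had 295 and 380 CPM and was seen in 49 members. *Kitl* had 306 and 340 CPM and was seen in 45 members. *Lepr* and *Kitl* were seen together in 13 members.

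The transcription factors of the group were sparser. *Foxc1* had 116 CPM (exact Poisson 95% interval 57.9 to 208) on plate 1 and 283 CPM (197 to 394) on plate 2. *Ebf3* had 105 CPM (50.6 to 194) and 251 CPM (170 to 356). Both were over 2-fold higher on plate 2, their counting intervals overlapped, and 1 plate a side allows no test. *Ebf1*, a relative of *Ebf3*, had 591 and 486 CPM. Of the 30 stromal transcription factors listed, 26 had UMIs on both plates and 12 reached 100 CPM on both.

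Among niche factors other than *Cxcl12*, the named genes of highest level included binding proteins of insulin-like growth factor. *Igfbp5* had 3681 and 4120 CPM and *Igfbp4* 1920 and 2590 CPM. *Vcam1*, the adhesion molecule of stromal cells, had 1540 and 2024 CPM in 93 members. Of its UMIs, 29 of 146 on plate 1 and 135 of 250 on plate 2 fell in the well with barcode GTTCCCAA, the well that leads *Ctcfl*. *Cxcl14*, a chemokine, had 1941 and 1336 CPM in 105 members. *Gas6*, a ligand of TAM receptors, had 939 and 1214 CPM. The macrophage growth factors *Csf1* (264 and 210 CPM) and *Il34* (200 and 202 CPM), which share a receptor, lay at like levels. *Il7*, the lymphoid cytokine, had 5 and 1 UMIs, *Angpt1* 10 and 3, and *Thpo* and *Lif* had none. Of 32 niche factors, 25 had UMIs on both plates, and 13 reached 100 CPM on both. These counts and the summed level include *Cxcl12*, which chose the cells. Without it, the other 31 genes summed to 12499 and 14473 CPM, beside 2518 and 1550 CPM in the other kept cells, as a description.

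Genes of adiponectin-positive stroma were abundant, and several genes of the mature adipocyte had few UMIs or none. *Gpx3*, a secreted glutathione peroxidase, had 6856 and 8070 CPM, *Apoe*, an apolipoprotein, 5210 and 6888 CPM, and *Hp*, haptoglobin, 3850 and 5099 CPM. *Lpl*, lipoprotein lipase, had 1424 and 1627 CPM in 113 members. *Agt*, angiotensinogen, had 749 and 898 CPM. *Pparg* and *Cebpa*, regulators of adipocyte differentiation, had 11 and 4 UMIs and 11 and 5 UMIs. *Plin1*, *Cidec*, *Lep*, *Retn*, *Ucp1* and *Slc2a4*, which mature fat cells express, had 0 UMIs on both plates. *Fabp4*, a fatty acid carrier, had 0 and 5 UMIs, *Plin2*, a lipid droplet protein, 8 and 3, *Lipe*, hormone-sensitive lipase, 5 and 6, and *Cfd*, adipsin, 1 and 0. Of 34 adipogenic genes, 21 had UMIs on both plates and 7 had none.

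Osteogenic genes were uneven. *Ibsp*, bone sialoprotein, had 7784 and 8734 CPM and was seen in 144 members, together with *Adipoq* in 130. *Spp1*, osteopontin, had 3744 and 1902 CPM, and *Sparc*, osteonectin, 3723 and 2534 CPM. In the other kept cells, *Ibsp* had 2471 and 1641 CPM, and all 15 carried it. The cell with 256 *Mpo* UMIs had 29 *Ibsp* and 10 *Adipoq* UMIs, and the cell with 151 *Cytl1* UMIs had 6 and 1. The part of transcripts from other wells was not tested here either. The 130 members are therefore a count of cells with both UMIs and do not establish that a cell made both. *Alpl* (7 and 7 UMIs), *Runx2* (5 and 4) and *Bglap* (11 and 6) were near the limit of detection, *Sp7* had 1 UMI in all, and *Sost*, *Mepe* and *Tnfsf11* had none. *Bglap*, *Bglap2* and *Bglap3* are near-identical copies among which reads can be split. Of 30 osteogenic genes, 20 had UMIs on both plates, 8 reached 100 CPM on both and 5 had no UMI.

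*Col1a1*, the chief collagen of bone, rests on 1 cell. It had 2268 CPM on plate 1 and 235 CPM on plate 2, and 150 of the 215 UMIs on plate 1 came from 1 member, which also had 120 of 267 *Col1a2* UMIs, 53 *Sparc* UMIs, 1 *Adipoq* UMI and a *Cxcl12* share of 0.372%. No other member had more than 6 *Col1a1* UMIs. Without it, plate 1 had 697 CPM *Col1a1*, 1577 CPM *Col1a2* and 3219 CPM *Sparc*, against 1198 CPM *Col1a2* and 2534 CPM *Sparc* on plate 2.

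**Figure D4:**
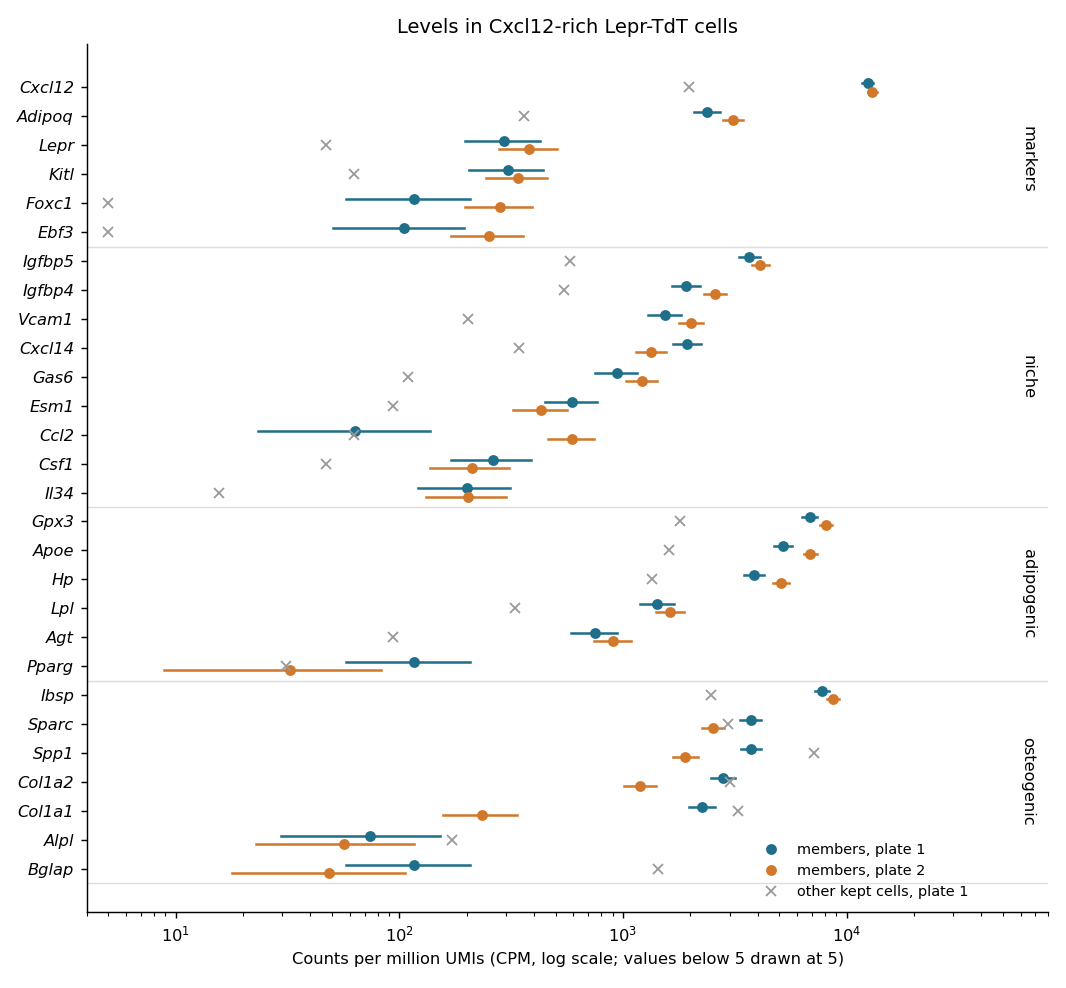
Levels in CPM (horizontal axis, log scale, values under 5 drawn at 5) of 28 genes in members of plate 1 and plate 2, with exact Poisson 95% intervals for counting error, and in the 13 other kept cells of plate 1 (crosses). Marker and niche genes lie above the crosses on plate 2, whereas *Spp1*, *Col1a1*, *Alpl* and *Bglap* lie below them on both plates.

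Receptors were few. *Pdgfrb* had 401 and 340 CPM, *Gdpd2* 686 and 688 CPM, and *Pdgfra* 7 and 6 UMIs. *Grem1*, the gene of the other lineage, had 105 and 72.8 CPM (10 and 9 UMIs in 17 members), and the 15 other kept cells held it in 2. *Thy1*, *Nes*, *Gli1* and *Ngfr* had no UMI. Of 32 receptor and surface genes, 19 had UMIs on both plates and 6 had none. Of 12 endothelial genes, 7 had no UMI, including *Cdh5* and *Kdr*. Of 12 mural cell genes, 5 had none, and *Rgs5* had 38 UMIs on plate 2 only, 25 of them in 1 member with a *Cxcl12* share of 0.819%. Of 18 chondrocyte genes, 3 had UMIs on both plates, and their summed level was 2932 CPM on plate 1, mostly *Cytl1*, and 56.7 CPM on plate 2. Of 18 S and G2/M phase genes, none reached 100 CPM on both plates, and 53 members carried a UMI of any.

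Mitochondrial transcripts made up 0.157% to 3.07% of a member's UMIs on plate 1 (median 0.915%) and 0.179% to 10.7% on plate 2 (median 0.949%), with 2 members above 5%. The plate sums were 1.11% and 1.12%. *mt-Rnr2* (4303 and 3327 CPM) and *mt-Cytb* (2268 and 3246 CPM) led. Ribosomal protein transcripts made up 2.08% and 1.47% of the sums, with medians of 1.77% and 1.58% per cell. Of 89 ribosomal protein genes, 85 had a UMI, and *Rps14* led with 1171 and 1036 CPM. Many of these genes have processed pseudogenes with near-identical sequence, so their reads are shared in part.

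By the mean of the plates, the most abundant transcript was *Sec61a1*, which encodes a subunit of the translocon of the endoplasmic reticulum, with 20894 CPM on plate 1 and 34911 CPM on plate 2 and a UMI in every member. The member with the most *Sec61a1* UMIs had the barcode GGCTCAAA on both plates (361 and 621 UMIs), and without it the levels were 17418 and 31075 CPM. After it in that order came *S100a8* (26326 and 19944 CPM), which was higher than *Sec61a1* on plate 1, *Cxcl12* (12467 and 13056 CPM), *Malat1* (14576 and 8871 CPM), a nuclear RNA, and *Gm37895* (3481 and 13639 CPM). *Gm37895* is a gene model still to be experimentally checked (biotype TEC) on chr1:25775757-25780306 of GRCm38, in an intron of *Adgrb3*. Both lie on the minus strand, and unspliced *Adgrb3* RNA would be counted alike. The next were *Ibsp*, *Gpx3*, *Ngp* (6793 and 8086 CPM), *Actb* (7436 and 4751), *Camp* (5907 and 6208), *Apoe*, *B2m* (5189 and 5601), *Fth1* (4905 and 4347), *S100a9* (5390 and 3780) and *Serping1*, the C1 inhibitor of complement (3544 and 5512).

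Between the plates, 2092 genes had at least 20 UMIs in both sums together. Of these, 12.3% were at least 2-fold higher on plate 1 and 12.9% on plate 2 (log2 scale of CPM + 10, 1 sum a side, no test). Among 16 niche factors at that depth, 3 were higher on plate 2, the chemokines *Ccl2* (63.3 and 591 CPM) and *Ccl19* (63.3 and 162 CPM) and the growth factor *Ptn* (63.3 and 138 CPM), and 0 on plate 1. Among 9 adipogenic genes, 0 differed by 2-fold in either direction. Of 19 matrix genes, *Col3a1*, *Col4a1*, *Col6a2*, *Fbln1* and *Htra1* were higher on plate 2, and *Col1a1* and *Col1a2* on plate 1. Of 12 immediate early genes, *Jun*, *Klf2* and *Klf6* were higher on plate 1 and *Egr1* on plate 2. The 10 largest differences towards plate 1 were *Cytl1*, *Col10a1*, *Gm11336*, *Prg4*, *Hist1h2ak*, *Hist1h2al*, *Ptpn1*, *Gm10800*, *Gm10801* and *Col1a1*. For *Col10a1*, *Gm11336*, *Hist1h2ak*, *Hist1h2al*, *Gm10800* and *Gm10801*, 1 member held 20 or more of the 25 to 36 UMIs on plate 1. Towards plate 2 they were *Mpo*, *D630003M21Rik*, *Rgs5*, *Elane*, *Gm9443*, *Ctsg*, *Cnpy4*, *Trappc1*, *Nkg7* and *Agtrap*. For *D630003M21Rik* 1 member held 93 of 98 UMIs and for *Gm9443* 31 of 35.

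Variation among members was measured as variance over mean of UMI counts after thinning to 651 UMIs, where a value of 1 is what counting alone gives. Of 323 genes with a mean of at least 0.2 UMIs on both plates, 52 were above 1.5 on both and 87 lay between 0.8 and 1.2 on both. The 10 highest were *Ctcfl*, *Lrp4*, *Col1a1*, *Sec61a1*, *1700061G19Rik*, *RP23-99K2.3*, *Trmt1l*, *Col1a2*, *Malat1* and *S100a8*, of which *Ctcfl*, *Lrp4*, *1700061G19Rik* and *Trmt1l* are well-tied. Without well-tied genes, 45 were above 1.5, and *Spp1* (7.83 and 3.896), *mt-Rnr2* (2.40 and 8.70), *Fos* (2.89 and 7.26) and *Ngp* (2.46 and 7.43) entered the 10 highest. Of these 45, 7 still had their top member under the same barcode on both plates, *Sec61a1* and *Vcam1* among them. Stromal genes lay below the 10 highest but above the median of all 323 genes (1.203 on plate 1 and 1.212 on plate 2). At equal relative variation the ratio rises with a gene's mean, and it was not adjusted for level. *Gpx3* had means of 5.09 and 5.87 thinned UMIs and *Adipoq* 1.75 and 2.40, against the minimum of 0.2. The median thus does not tell whether stromal genes vary more than others. *Adipoq* had 1.70 and 1.62, *Apoe* 1.72 and 1.48, and *Gpx3* 2.01 and 1.88. *Vcam1* had 2.58 and 2.43, with 29 of 146 and 135 of 250 UMIs in the GTTCCCAA well that leads *Ctcfl*. *Ibsp* had 3.65 and 3.25 and *Igfbp5* 2.44 and 2.56.

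Across members of 1 plate, thinned *Cxcl12* and *Adipoq* counts had a Spearman correlation of 0.37 on plate 1 (55 cells) and 0.32 on plate 2 (75 cells). *Cxcl12* and *S100a8* had -0.35 and -0.34, and *S100a8* and *Ngp* 0.40 and 0.46. *Adipoq* and *Ibsp* had 0.07 and 0.13, and *Adipoq* and *Col1a1* -0.33 and -0.19. *Cxcl12* chose the cells, all counts of a cell share 1 fixed total, and these values are descriptions.

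Set beside the other kept *Lepr-TdT* cells, the members had the largest folds on both plates together for *1700061G19Rik*, *Mettl14*, *Gm42856*, *Ctcfl*, *Gas6*, *Tpcn1*, *Shank1*, *Rarres2*, *Kng1* and *Adamts2*. Of these *1700061G19Rik*, *Gm42856*, *Ctcfl*, *Tpcn1* and *Shank1* are well-tied, which leaves *Mettl14* (1297 and 1781 CPM against 156 and 0), *Gas6* (939 and 1214 against 109 and 0), *Rarres2*, which encodes the adipokine chemerin (369 and 486 against 15.6 and 0), *Kng1*, kininogen (591 and 672 against 46.9 and 0) and *Adamts2*, a procollagen peptidase (327 and 518 against 15.6 and 0). Towards the other cells were *Gm26648*, *Gm12758*, *Milr1*, *Efcc1*, *Ciapin1*, *Ly6c1*, *Gm37773*, *Rfc2*, *RP24-550H10.3* and *Gm7882*. On plate 2, 21187 of the 21941 UMIs of the other kept cells come from the cell with 256 *Mpo* and 235 *Elane* UMIs. Single other cells of plate 1 also held most UMIs of some genes, with 31 of 45 for *Efcc1* and 30 of 40 for *Gm12758*. All genes of the members count as used in choosing them, so the folds carry no test.

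The comparison with *Grem1-TdT* cells asks how these cells differ from the chondrogenic lineage. UMIs of 145 members were summed per plate (n = 2) and set against sums of 684 *Grem1-TdT* cells (n = 8 plates) over 29183 genes listed for both lineages, with *Cxcl12* out of the test. Of 2966 genes tested with edgeR's quasi-likelihood test, 336 (11.3%) were higher in members and 449 (15.1%) lower at an adjusted p under 0.05. Without *Lepr-TdT* plate 2, 129 were higher and 287 lower. CPM values in this comparison are scaled to the shared genes, which took 40.4% of member UMIs, and adjusted by TMM factors. They thus differ from those above. Genes entered the test after a filter on low counts, which either group alone can satisfy. A gene that met it through a single group was high there in advance, so its call towards that group is favoured. The gene lists were chosen with earlier results known. Counts and medians per list are therefore descriptions, to be read beside the 11.3% higher and 15.1% lower of all genes tested. Median log2 fold changes were 5.30 for the tested stromal markers, 3.66 for niche factors, 2.42 for adipogenic genes, 0.71 for stromal transcription factors, -0.11 for matrix genes, -1.54 for osteogenic genes and -2.66 for immediate early genes, beside -0.13 over all genes tested.

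Among marrow stromal markers other than *Cxcl12*, the 3 tested were higher in the main comparison. *Adipoq* and *Ebf3* met the filter on low counts through the members' plates, so this count is a description. *Adipoq* had 4332 and 6450 CPM in members and 0 to 17.4 CPM on *Grem1-TdT* plates (log2 fold change 10.19 ± 0.46 SE, adjusted p = 2.48e-10). At 269 shared-gene UMIs per cell, 78.5% of members and 0% of *Grem1-TdT* cells carried it. *Ebf3* had 193 and 519 CPM (41 UMIs) against 9 UMIs over the *Grem1-TdT* plates (5.30 ± 0.63). *Foxc1* had 212 and 586 CPM against 91.4 to 305, so its plates overlapped (1.23 ± 0.40, adjusted p = 0.031). It did not pass without a filter on low counts (adjusted p = 0.141), with all kept *Lepr-TdT* cells (0.165) or at a *Cxcl12* limit of 0.1% (0.167). Nor did it pass with the gene minimum over shared genes (0.128). On plates 1 and 2 of each lineage it failed with and without a block on plate number (0.208 and 0.071). Without *Lepr-TdT* plate 2 its log2 fold change was 0.17.

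Of 12 niche factors other than *Cxcl12* listed for both lineages, 9 were tested, of which 8 were higher and 1 lower. *Esm1*, *Ccl2*, *Csf1*, *Bmp4* and *Angptl4* met the filter on low counts through the members' plates, so this count is a description. *Esm1*, endocan, had 1078 and 888 CPM in members and no UMI on the 8 *Grem1-TdT* plates. With 3 counts per library as the floor, it was at least 45-fold higher. *Gas6* had 1713 and 2513 CPM against 36.5 to 140 (5.02 ± 0.30), *Csf1* 481 and 436 against 0 to 44.4 (4.41 ± 0.51), and *Cxcl14* 3542 and 2764 against 114 to 492.96 (3.52 ± 0.35). *Ccl2* had 116 and 1223 CPM against 0 to 22.1 (6.94 ± 0.76), and *Angptl4* and *Bmp4* were higher by 3.59 ± 0.57 and 3.66 ± 0.67. *Ccl19* passed with 3.03 ± 0.98 and an adjusted p of 0.030, with overlapping plates. It did not pass in DESeq2 (adjusted p = 0.157) or without *Lepr-TdT* plate 2 (0.444). The chemokine *Cxcl1* was lower, with 3 UMIs in members (-3.13 ± 0.87), and did not pass without *Lepr-TdT* plate 1 or plate 2 (adjusted p = 0.051 and 0.136).

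Of 8 stromal transcription factors tested, 4 were higher (*Foxc1* with the limits above), 1 lower and 3 neither. Of all genes tested, 11.3% were higher and 15.1% lower. *Ebf1* had 1078 and 1005 CPM against 44.1 to 217 (3.16 ± 0.37), and *Cebpa* was higher by 3.20 ± 0.67, but did not pass without *Lepr-TdT* plate 1 (2.29, adjusted p = 0.135). *Foxo1* was lower, with 57.8 and 33.5 CPM against 158 to 356 (-2.56 ± 0.50). On plates 1 and 2 of each lineage *Foxo1* did not pass with or without the block on plate number (adjusted p = 0.116 and 0.0592). *Cebpb* had -0.61 ± 0.30 and *Cebpd* -0.67 ± 0.33 (adjusted p = 0.151 and 0.152). *Cebpb* passed as lower in members of low neutrophil share (-1.54, 0.00429), and *Cebpd* with all kept cells (-1.09, 0.0234) and at a *Cxcl12* limit of 0.1% (0.0231). Of 10 adipogenic genes tested, 6 were higher and 0 lower: *Adipoq*, *Agt* (4.65 ± 0.41), *G0s2* (3.52 ± 0.54), *Cebpa*, *Apoe* (2.67 ± 0.26) and *Dgat1* (2.17 ± 0.52). Of these, *Adipoq*, *Cebpa* and *Dgat1* met the filter on low counts through the members' plates. *Apoe* had 9510 and 14258 CPM against 1186 to 2281. *Dgat1* did not pass without *Lepr-TdT* plate 1 (adjusted p = 0.178).

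Of 10 osteogenic genes tested, 0 were higher, 2 lower and 8 neither, beside 11.3% higher and 15.1% lower of all genes tested. The near-identical copies *Bglap*, *Bglap2* and *Bglap3* (-4.19, -3.60 and -3.88) each count in the list and its median of -1.54. *Alpl* had 135 and 117 CPM against 199 to 735 (-1.82 ± 0.50) and did not pass without either *Lepr-TdT* plate (adjusted p = 0.0568 and 0.105). *Col11a1*, a collagen of cartilage as well as bone, had -6.15 ± 0.53. *Col1a1* had 4139 and 486 CPM against 36.8 to 15122 (-0.51 ± 1.33, adjusted p = 0.821), a spread on both sides that leaves no call. *Bglap* had 212 and 101 CPM against 71.6 to 7052 (-4.19 ± 1.68, adjusted p = 0.077). It did pass as lower in DESeq2 (0.0304), without a filter (4.82e-19) and without *Grem1-TdT* plate 2 (0.039) or plate 4 (0.0355). *Ibsp* and *Spp1* were not analysed in *Grem1-TdT* cells.

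Of 17 matrix genes tested, 5 were higher, 5 lower and 7 neither, beside 11.3% higher and 15.1% lower of all genes tested. Basement membrane collagens were among the higher: *Col4a1* had 385 and 921 CPM against 0 to 26.1 (6.49 ± 0.53) and *Col4a2* 231 and 268 against 0 to 34.8 (4.18 ± 0.66). *Col8a1* (4.69 ± 0.56), *Fbln1* (6.06 ± 0.68) and *Fbn1* (2.58 ± 0.31) were higher too. *Col4a1*, *Col4a2*, *Col8a1* and *Fbln1* met the filter on low counts through the members' plates. *Dcn* (-3.33 ± 0.39), *Fn1* (-5.39 ± 0.60), *Fmod*, *Col6a3* and *Col15a1* were lower, although *Col15a1* did not pass without *Lepr-TdT* plate 2 (adjusted p = 0.0544). Of 12 chondrocyte genes, 12 were lower, at a list median of -7.23 beside -0.13 over all genes tested. *Col2a1* had 212 and 0 CPM against 39903 to 66258, *Acan* 77.0 and 0 against 3359 to 6813, and *Comp* 57.8 and 67.0 against 4718 to 5907. *Cytl1*, with 3369 and 0 CPM against 61897 to 112237, was lower too, with its member UMIs on plate 1 alone. On plates 1 and 2 of each lineage *Cytl1* and *Col10a1* did not pass with the block on plate number (adjusted p = 0.0852 and 0.0583).

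Of 8 receptor and surface genes tested, 2 were higher, 3 lower and 3 neither, beside 11.3% higher and 15.1% lower of all genes tested. The 2 higher, *Gdpd2* and *Adrb1*, met the filter on low counts through the members' plates. *Gdpd2* had 1251 and 1424 CPM against 0 to 7.90, with 2 *Grem1-TdT* UMIs in all (ratio of rates 748, counting interval 204 to 6234). *Adrb1* was higher (3.83 ± 0.97) on 18 UMIs in 3 members, and did not pass in DESeq2 (adjusted p = 0.156) or without *Lepr-TdT* plate 2 (0.301). *Fgfr3* had 0 UMIs in members against 200 to 479 CPM, and *Cd200* had 212 and 268 against 480 to 1053 (-1.69 ± 0.39). On plates 1 and 2 of each lineage *Cd200* did not pass with or without the block on plate number (adjusted p = 0.193 and 0.0932). *Cspg4* had -2.37 ± 0.36. It was also the 1 mural cell gene tested. All 6 immediate early genes tested were lower, with *Fos* at -2.14 ± 0.43, *Egr1* at -3.15 ± 0.57 and *Btg2* at -4.66 ± 0.68. On plates 1 and 2 with the block, *Fos*, *Fosb* and *Dusp1* did not pass (adjusted p = 0.131, 0.147 and 0.0631). *Fosb* did not pass without *Lepr-TdT* plate 2 (adjusted p = 0.0538). Genes of this class are known to respond to cell isolation. Of 4 haematopoietic genes tested, *Camp* was higher (10781 and 12851 CPM against 0 to 1644) and 3 were neither. Of 3 S and G2/M phase genes, 0 passed.

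Among called genes that averaged 50 CPM or more and whose plates did not overlap, the 10 largest differences towards members were *Gm37895*, *Adipoq*, *Esm1*, *Gdpd2*, *Dpep1*, *Fmo2*, *Fbln5*, *Cxcl9*, *Ccl2* and *Ggt5*. All 10 met the filter on low counts through the members' plates, so they are a description. *Gm37895* had 6353 and 28231 CPM in members and 1 UMI in all *Grem1-TdT* plates. *Dpep1*, a membrane dipeptidase, had 1444 and 1642 CPM against 0 to 15.8, and *Fbln5*, fibulin 5, had 1136 and 1307 CPM against 0 to 40.2 (7.22 ± 0.52). *Cxcl9*, an interferon-induced chemokine, had 57.8 and 754 CPM and 2 *Grem1-TdT* UMIs. The 10 largest towards *Grem1-TdT* cells were *Fxyd2*, *Col9a1*, *C1qtnf3*, *3110079O15Rik* (*Snorc*), *Gfpt2*, *Epyc*, *Cnmd*, *Dhx58os*, *Col2a1* and *Fam180a*. *Fxyd2*, a regulator of the sodium pump, had 0 UMIs in members against 2251 to 6498 CPM, which makes it at least 74.7-fold lower, and *C1qtnf3* was at least 18.2-fold lower. *Cnmd*, chondromodulin, had 3 UMIs in members and 19176 in *Grem1-TdT* cells.

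**Figure D5:**
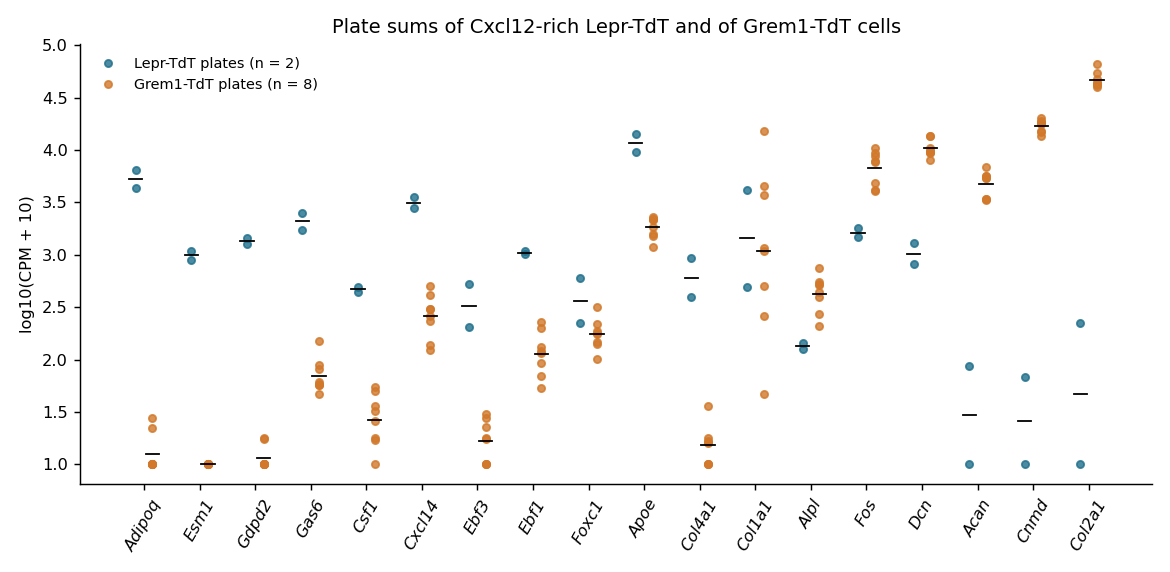
Plate sums of 18 genes as log10(CPM + 10) (vertical axis), scaled to genes listed for both lineages and adjusted by TMM factors. Points are single plates of members (n = 2) and *Grem1-TdT* cells (n = 8), and bars lie at the mean of the log values. *Adipoq*, *Esm1*, *Gdpd2* and *Gas6* lie apart upwards, the cartilage genes *Acan*, *Cnmd* and *Col2a1* apart downwards, and *Col1a1* and *Foxc1* overlap.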

How the data were processed

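For each lineage, the authors deposited 1 table of whole-number UMI counts by gene and well, without normalisation. The submitters' processing notes name UMI-tools, STAR, featureCounts, SAMtools and Seurat with the build mm10, without versions, whereas the methods name the Cell Ranger pipeline. The *Lepr-TdT* counts cover 50508 genes. For *Grem1-TdT*, 29183 complete rows were used, in alphabetical order up to *Gm5763*, and 1 incomplete row was left out, so later genes were not analysed between lineages. Wells were assigned to plates from the deposited column names. Members and gene lists were chosen with earlier results of these data known. CPM are UMIs of a gene per 1000000 UMIs of the summed cells, with exact Poisson intervals. In the comparison between lineages they are taken over the shared genes and adjusted by TMM factors. The lineage test was edgeR 4.0.16 in R 4.3.3 (TMM, filterByExpr, quasi-likelihood test, Benjamini-Hochberg adjustment at 0.05) on plate sums. Its standard errors, the log2 fold change over the square root of F, are approximate. DESeq2 1.42.0 was an alternative. The test was checked on simulated counts. Genes named are the list members, the 15 most abundant, and the 10 largest differences per direction. *Mpo*, *Elane*, *Ctsg*, the well-tied genes, the 1 *Col1a1* cell and *Rgs5* were singled out after their values were seen. The C/EBP motif was narrowed, and an E-box search dropped, after the hits of a first search were seen. Doublets were not called. Members over 3 times the median UMIs were left out as an alternative. Annotation was GENCODE for GRCm38, with a match for 94.3% of *Lepr-TdT* symbols. The strand setting of the counting is not given in the sources used here, so overlapping antisense genes cannot be separated.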

Additional observations from a re-analysis of the deposited data

Results flagged for a closer look

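Of 70 genes whose values over the 8 *Grem1-TdT* plates were examined, 12 had 1 plate far from the other 7. Chance gives about 1 in 20 for continuous values, a rate that does not hold for genes of few UMIs such as *Gm37895* (1 *Grem1-TdT* UMI) and *Dpep1* (3). CPM here are scaled to the shared genes without TMM. Plate 7 stood apart for *Col1a1* (12810 CPM, next 4116), *Col1a2* (9801, next 3077), *Cnmd* (11401, the lowest, next 15691), *Adrb1* (51.6 CPM) and *Col4a1* (22.1). Plate 4 stood apart for *Ccl19* (160 CPM, next 16.8), *Gas6* (138 CPM) and *Gm37895* (7.29 CPM, its only *Grem1-TdT* UMI). Plate 6 did so for *Col8a1* (56.1 CPM) and *Dpep1* (14.02 CPM), plate 8 for *Fbln5* (36.1 CPM) and plate 9 for *Cxcl1* (500.0 CPM).

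The 2 *Lepr-TdT* wells left out for having fewer than 350 genes, both on plate 1, carried *Cxcl12*. The first had 15 *Cxcl12* of 552 UMIs with 343 genes, and the second had 9 of 506 UMIs with 336 genes.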

How the results depend on the processing

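The 785 genes that differed between lineages numbered 657 to 1047 with DESeq2, with its size factors used in edgeR, without a filter, with all kept *Lepr-TdT* cells, other *Cxcl12* limits or the gene minimum over shared genes, with no gene of opposite sign among those shared with the 785. With plates 1 and 2 of each lineage alone there were 470, and 238 with the replicate block on the plate number. The plates share only a number (correlations of their deviations -0.0023 and 0.0319), so no pairing is read from it. Leaving out 1 plate gave 416 to 791 genes, and the 416 came without *Lepr-TdT* plate 2 (31.0% of them higher). Added after the data were seen, sums without well-tied genes gave 776, members at or below their plate's median neutrophil share 568 (31.5% of them higher in members, against 42.8% of the 785), and sums without members over 3 times the median UMIs 746. Of 72 named genes, 51 kept their call in every alternative that tested them, and 5 of the 72 were not tested in 1 or more. Signs reversed for *Col1a1* (0.20 without *Lepr-TdT* plate 2, 0.52 without *Grem1-TdT* plate 7, 0.59 with the block and 1.21 without it on 4 plates), *Col1a2* (-0.12 at a limit of 1%, -0.35 without *Lepr-TdT* plate 1), *Cebpd* (0.017 with the block) and *Elane* (-3.56 without *Lepr-TdT* plate 2), none of which was called in the main comparison or under these settings. With 1 plate left out, *Col1a1* ranged from -2.87 to 0.52, *Col1a2* from -0.35 to 1.18 and *Elane* from -3.56 to 2.04. The cause was not tested.

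Levels moved by more than the plate SD with the limit, as the rule implies. At 0.1% and 1%, *Adipoq* had 2148 and 3273 CPM, *Lepr* 264 and 433, *Kitl* 250 and 415, and mitochondrial transcripts 1.04% and 1.07%, and 64.3% of kept cells passed 1%. *Kitl* had 418 CPM in members of low neutrophil share and 388 CPM without members over 3 times the median UMIs, where mitochondrial transcripts had 1.03% and 1.15%. These had 1.22% as a mean of per-cell shares and 1.12% with no gene minimum. Leaving out 1 of the 2 *Lepr-TdT* plates only returns the value of the other plate and is no further check. Between the plates, *Adipoq* ran from 2373 to 3116 CPM, *Lepr* from 295 to 380, *Kitl* from 306 to 340 and *Col1a1* from 235 to 2268. Mitochondrial transcripts ran from 1.11% to 1.12%, ribosomal protein transcripts from 1.47% to 2.08%, and members from 82.4% to 97.7% of kept cells. A gene with 0 UMIs on a plate may lie at up to 38.9 CPM on plate 1 and 29.9 CPM on plate 2 (exact Poisson limits).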
